A study of Mus musculus with 28 samples.

Results

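The nuclear receptor superfamily was followed in 38 genes through a chemical reprogramming experiment in mouse cells. The members were the rows of the deposited tables whose symbol is one of 38 named receptor genes, out of 31673 genes in all. Of these 38, 32 passed a filter on low counts and were tested. The other 6 (Nr1i3, Nr0b2, Rxrg, Esr2, Nr2e3 and Nr5a1) were too low for a test and are given by their levels, so that counts over the 32 do not speak for the whole superfamily.

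Nuclear receptors are transcription factors, most of which change the activity of their target genes when a small fat-soluble molecule such as a steroid, thyroid hormone, retinoic acid, an oxysterol or a fatty acid binds to them. Many of them bind DNA as a pair with a retinoid X receptor, the steroid receptors bind as pairs of their own kind, and some orphan receptors need no known ligand. In the adult liver they are known for the control of drug clearance, of bile acid, cholesterol and fatty acid metabolism, and of the daily rhythm of liver genes.

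RNA was sequenced in 28 libraries of 9 groups. Fibroblasts of E13.5 mouse embryos (MEF, passage 2, 3 libraries) gave chemically induced endoderm progenitor cells (MEF_ciEPC, passages 1 to 22, 10 libraries). These gave hepatocyte-like cells (MEF_ciHep, 3 libraries). Neonatal dermal fibroblasts (MNF, passage 2, 2 libraries) gave MNF_ciEPC (passages 2 and 3, 2 libraries) and MNF_ciHep (2 libraries). Further groups were endoderm progenitors made from embryonic stem cells (ESC_EPC, from stem cells of passages 10 to 15, 2 libraries), embryonic stem cells at an earlier passage (ESC, passage 5, 2 libraries) and primary hepatocytes of adult liver that were not passaged (pHep, 2 libraries). Per the labels the ciHep libraries came from ciEPCs of passages 3 to 10, and the compounds used are not named in the labels. All cells carry an Oct4-GFP transgene. MNF, both of its derivatives and pHep come from CBA/CaJ X C57BL/6J mice, while MEF, both of its derivatives, ESC and ESC_EPC come from such mice bred to 129Sv/Jae females, so strain and fibroblast source cannot be told apart. The labels name no separate cultures or animals within a group, so the p-values measure the spread between these samples, which may be technical. The source name of the MNF_ciEPC libraries reads MEF, against their title and cell type, and the cell type was followed.

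Library totals ran from 1439670 to 6133150 expected counts, the estimated number of reads of all genes. The 10 MEF_ciEPC libraries are passages of 2 numbered culture series and entered the test as 1 summed sample per series. The library labelled MEF_ciEPC series 2 passage 22 stood apart, with a summed level of 8 pluripotency markers of 13672 TPM, a read share scaled to gene length, against 9051 and 9242 TPM in ESC, and with the endoderm factor Sox17 at 1.27 TPM, against 437 to 1287 TPM in the other 9 MEF_ciEPC libraries. Results that rest on it are given with and without it. Hepatocyte markers went against the label of MNF_ciHep. The summed level of 10 such markers was 40.1 and 155 TPM in MNF_ciHep, against 32843 and 21224 TPM in pHep, with Cps1 and Serpina1a at 0 in both MNF_ciHep libraries and albumin (Alb) at 0 to 0.56 TPM. In MEF_ciHep the same sum was 11852 to 25671 TPM. The summed level of 10 fibroblast markers was 1970 and 4774 TPM in MNF_ciHep, against 15.6 and 41.2 TPM in MNF_ciEPC, and all 10 were higher by the test. It was 11.7 to 21.5 TPM in MEF_ciHep, 9.97 and 329 TPM in pHep, and 30776 and 32435 TPM in MNF. Results for MNF_ciHep below stand beside these values, and the part of the marker shift in them was not tested. The fragment length implied by the deposited effective gene lengths was 50.5 bases in ciHep and 50.5 to 50.6 in MEF_ciEPC libraries, 49.5 and 50.5 in pHep, 74.3 to 74.5 in MEF, MNF, MNF_ciEPC and ESC, and 187 to 196 in ESC_EPC. Library type and group can therefore not be told apart in MEF_ciEPC against MEF, MNF_ciHep against MNF_ciEPC, and both comparisons with ESC_EPC. Each test of the difference between the origins holds 1 of these comparisons, so the same limit applies to both.

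**Figure D1:**
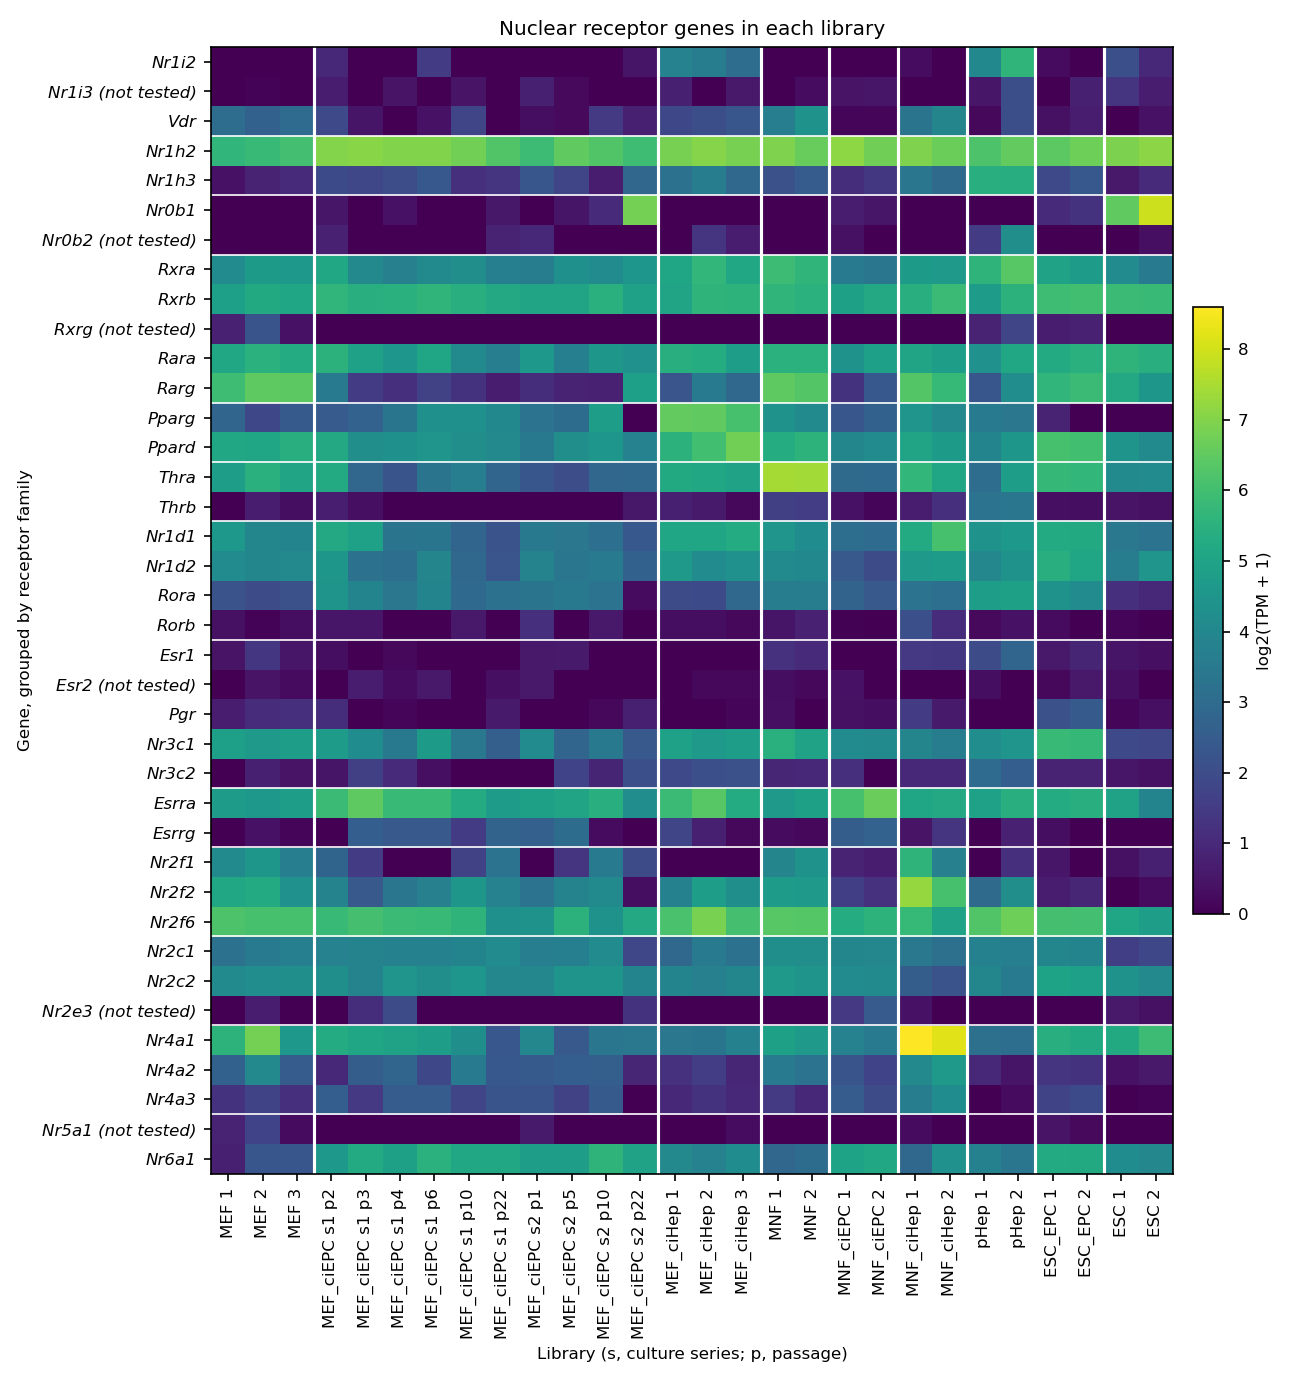
Level of all 38 members (rows, grouped by receptor family) in each of the 28 libraries (columns), on a log2(TPM + 1) colour scale. Nr1h2 and Rxrb are high in every column, Nr4a1 is brightest in the MNF_ciHep libraries, and Nr0b1 is bright in the ESC libraries and in MEF_ciEPC series 2 passage 22.

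Each comparison was fitted over all 16061 tested genes with edgeR's quasi-likelihood test, and calls needed both an adjusted p (Benjamini-Hochberg) below 0.05 and a 2-fold change or more. Levels are in TPM, and changes are log2 fold changes of counts with their standard error. In bulk RNA fewer cells of a type and less RNA per cell cannot be told apart. In all, 30 members were called in at least 1 comparison. The same count over all tested genes was not made, so this count is not a result about the members.

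More members were lower than higher in ciEPCs relative to the fibroblasts. In MEF_ciEPC against MEF, 5 members were higher (15.6% of the 32) and 13 lower (40.6%), beside 17.6% and 15.8% of all tested genes. Their median log2 fold change was -0.74, beside 0.12 over all tested genes. In MNF_ciEPC against MNF, 4 were higher (12.5%) and 18 lower (56.2%), beside 18.4% and 21.9% of all tested genes, with a median of -1.28 beside 0 over all tested genes. By limma on log2(TPM + 1), the members split into 6 higher and 7 lower in MEF_ciEPC against MEF, and all genes into 3218 and 1896 in place of 2825 and 2541.

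The direction was the opposite at the next step. In MEF_ciHep against MEF_ciEPC, 15 members were higher (46.9%) and 4 lower (12.5%), beside 17.8% and 14.8% of all tested genes, with a median of 0.94 beside -0.08. In MNF_ciHep against MNF_ciEPC, 18 were higher (56.2%) and 3 lower (9.38%), beside 19.5% and 10.8%, with a median of 2.28 (2.25 with genes absent from a group at their bound) beside 0.05. Each ciEPC group is shared by both of its steps, so a sample that is low there lowers the first value and raises the second. By limma on log2(TPM + 1) the members split into 10 higher and 5 lower in MEF_ciHep against MEF_ciEPC and 15 and 4 in MNF_ciHep against MNF_ciEPC. All genes then split into 2051 higher and 3150 lower in place of 2865 and 2383 for MEF origin, and into 2597 and 2203 in place of 3135 and 1739 for MNF origin. Without MEF_ciEPC series 2 passage 22 the counts were 4 higher and 13 lower in MEF_ciEPC against MEF, and 13 and 4 in MEF_ciHep against MEF_ciEPC. Beside these stood 2747 and 2717, and 3000 and 2213, of all genes.

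Against primary hepatocytes, MEF_ciHep had 4 members higher (12.5%) and 5 lower (15.6%), beside 15.1% and 10.8% of all tested genes, with a median of 0.30 beside 0.01. MNF_ciHep had 11 higher (34.4%) and 9 lower (28.1%), beside 18.4% and 13.4%, with a median of 0.26 beside 0.11. Both comparisons share the pHep libraries. In the stem cell route, ESC_EPC against ESC had 11 higher (34.4%) and 2 lower (6.25%), beside 18.6% and 14.7%, with a median of 1.19 beside 0. MEF_ciEPC against ESC_EPC had 4 higher (12.5%) and 7 lower (21.9%), beside 16.8% and 14.9%, with a median of -0.61 beside 0.08. Without MEF_ciEPC series 2 passage 22 the last counts were 4 and 8, beside 2853 and 2764 of all genes.

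**Figure D2:**
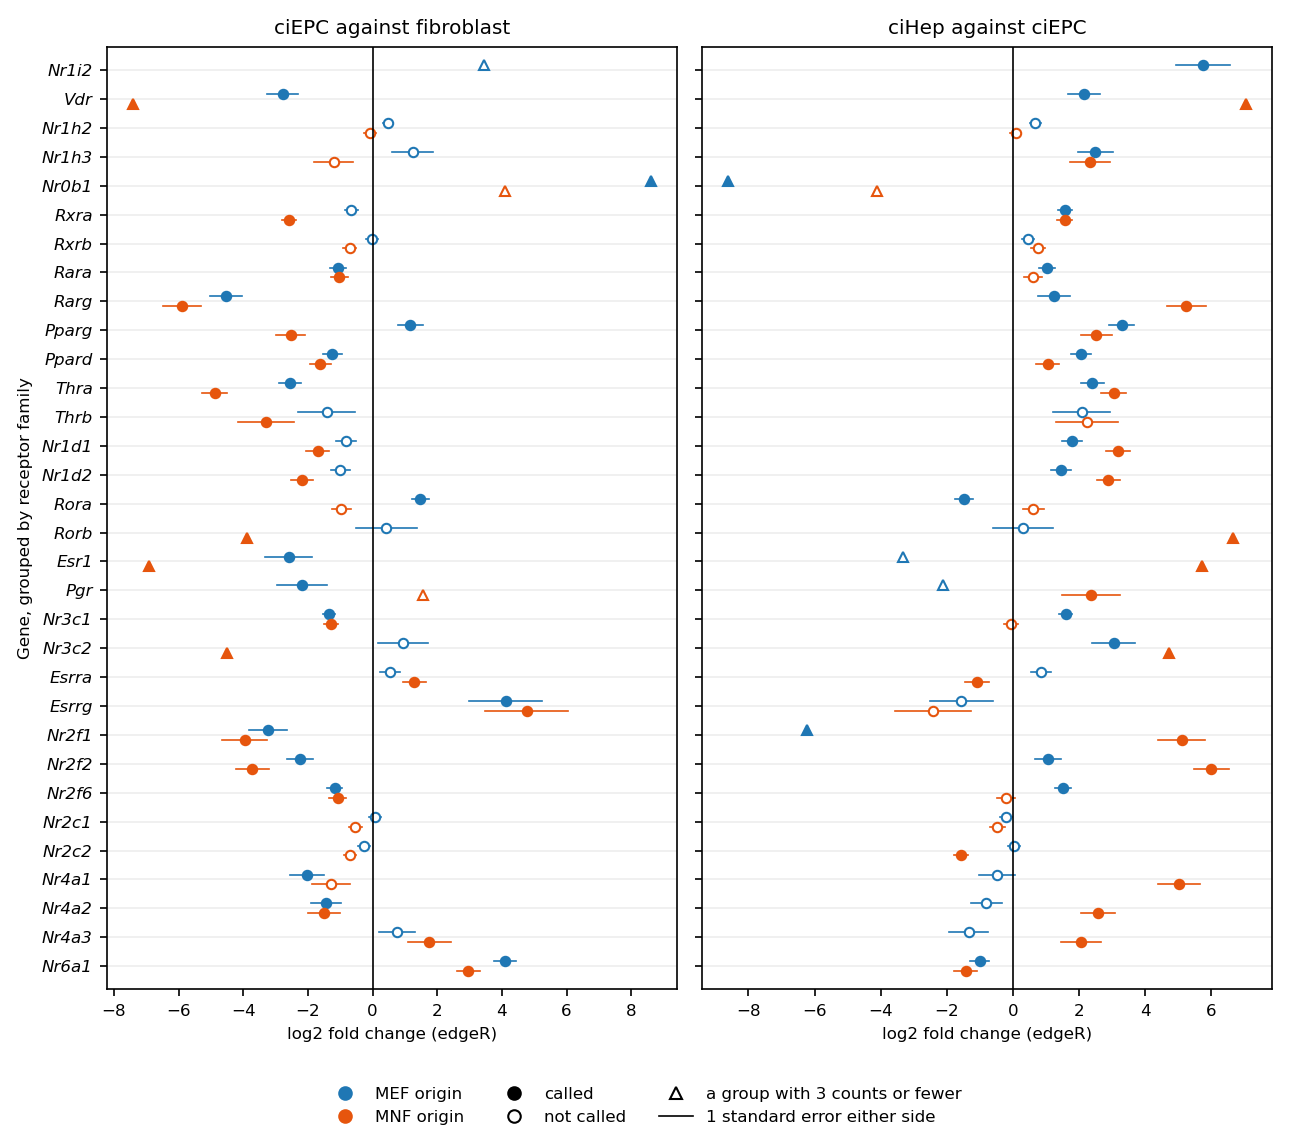
Log2 fold change (edgeR) of the 32 tested members in ciEPC against fibroblast (left) and ciHep against ciEPC (right), for MEF origin (blue) and MNF origin (orange), with filled points for called members and bars of 1 standard error. Triangles mark fits in which a group held 3 counts or fewer, whose size depends on the model's prior, and Nr1i2 of MNF origin has no point because both groups held 3 counts or fewer. Rarg, Thra, Nr2f1 and Nr2f2 lie left of 0 for both origins at the first step, and the NR4A genes separate by origin at the second.

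The retinoid X receptors pair with many of the other members, and Rxra and Rxrb were present in every group. Rxrb (chr17:34031812-34038399, mm10) ranged from 25.8 to 62.4 TPM over all libraries and was called in no comparison. Rxra, the form known as the main one of liver, had 58.5 and 48.1 TPM in MNF, 11.0 and 9.51 TPM in MNF_ciEPC and 25.0 and 23.4 TPM in MNF_ciHep. It fell in MNF_ciEPC against MNF by 2.59 ± 0.23 (adjusted p = 3.08e-07) and rose in MNF_ciHep against MNF_ciEPC by 1.56 ± 0.23 (adjusted p = 9.35e-05), with no overlap between these groups. In the MEF line it had 16.8, 25.1 and 23.1 TPM in MEF, a range of 11.4 to 34.4 with a median of 16.4 TPM in MEF_ciEPC, and 32.5, 50.7 and 34.9 TPM in MEF_ciHep. The rise in MEF_ciHep against MEF_ciEPC was 1.57 ± 0.20 (adjusted p = 1.99e-05), and 1 ciEPC library, series 1 passage 2, reached the MEF_ciHep range. MNF_ciHep lay below pHep, which had 47.8 and 82.3 TPM, by a log2 fold change of -1.46 ± 0.22 (adjusted p = 0.000119), while for MEF_ciHep against pHep the change was -0.68 ± 0.19 and under 2-fold. Rxrg, the form of muscle and brain, was at 0 in every ciEPC and ciHep library and reached at most 3.72 TPM, in MEF.

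The retinoic acid receptors differed from each other. Rarg (chr15:102234938-102257517, mm10), the receptor form known from skin and skeletal precursors, had 59.6, 88.6 and 85.0 TPM in MEF, a range of 0.61 to 27.8 with a median of 1.34 TPM in MEF_ciEPC, and 3.78, 10.8 and 6.33 TPM in MEF_ciHep. No ciEPC library reached the MEF range, and the highest was series 2 passage 22. Its log2 fold change in MEF_ciEPC against MEF was -4.53 ± 0.50 (adjusted p = 3.06e-06). Without that library it was -5.64, without series 1 it was -3.92 and without series 2 it was -5.21. In the MNF line Rarg had 87.2 and 78.7 TPM in MNF, 1.41 and 4.16 TPM in MNF_ciEPC and 78.2 and 52.8 TPM in MNF_ciHep. It fell by 5.89 ± 0.59 (adjusted p = 1.07e-06) at the first step and rose by 5.24 ± 0.59 (adjusted p = 1.04e-05) at the next one (4.52 without MNF_ciHep replicate 1). MNF_ciHep lay above pHep, with 3.92 and 17.7 TPM, by 2.39 ± 0.52 (adjusted p = 0.00177), or by 1.79, 1.80 and 3.33 without MNF_ciHep replicate 1, pHep replicate 1 or pHep replicate 2. The rise in MEF_ciHep against MEF_ciEPC was 1.23 ± 0.48 (adjusted p = 0.0448). It was 2.35 without series 2 passage 22 and 1.95 without series 2, and it was lost without MEF_ciEPC series 1 (0.65), MEF_ciHep replicate 2 (0.70) or MEF_ciHep replicate 3 (1.35, adjusted p = 0.0502).

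Rara, the broadly expressed receptor form, stayed within 11.9 to 47.3 TPM in all libraries. It had 34.2, 44.5 and 38.4 TPM in MEF, a range of 11.9 to 44.7 with a median of 22.1 TPM in MEF_ciEPC, and 40.9, 39.4 and 26.7 TPM in MEF_ciHep. MNF had 44.4 and 44.0 TPM, MNF_ciEPC 19.8 and 27.9 TPM and MNF_ciHep 31.3 and 26.8 TPM. Rara was called lower in both ciEPC groups (-1.07 ± 0.24 and -1.03 ± 0.26, adjusted p = 0.00191 and 0.00369, in MEF_ciEPC and MNF_ciEPC) and higher in MEF_ciHep against MEF_ciEPC (1.04 ± 0.24, adjusted p = 0.0025). All of these calls sit at the 2-fold minimum. Rara of MEF origin dropped below it without MEF replicate 2 (-0.95) or MEF_ciEPC series 2 (-0.79), and in MNF_ciEPC without MNF replicate 1 (-0.98), MNF replicate 2 (-0.90) or MNF_ciEPC replicate 1 (-0.73). The rise of Rara in MEF_ciHep dropped below it without series 2 passage 22 (0.98), series 2 (0.78), MEF_ciHep replicate 1 (0.94) or MEF_ciHep replicate 2 (0.97).

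Of 16 tested retinoic acid response genes, 4 were higher and 7 lower in each of the comparisons of ciEPC with fibroblast, which share no sample. Of all tested genes, 17.6% were higher and 15.8% lower in MEF_ciEPC against MEF. In MNF_ciEPC against MNF these shares were 18.4% and 21.9%. The retinoic acid carrier Crabp1 had 8.93 and 14.3 TPM in MNF_ciEPC, against 643 and 840 TPM in MNF, and fell by 6.11 ± 0.61 (adjusted p = 9.61e-07). Stra6, the receptor that takes up retinol, had 38.2 and 76.6 TPM in MNF_ciEPC, against 0.15 and 0.47 TPM in MNF, and rose by 7.13 ± 0.73 (adjusted p = 1.29e-06). At the next step 12 of the 16 were higher and 0 lower in MNF_ciHep against MNF_ciEPC, beside 19.5% and 10.8% of all tested genes. In MEF_ciHep against MEF_ciEPC 3 were higher and 6 lower, beside 17.8% and 14.8%. Cyp26b1, an enzyme that breaks down retinoic acid, had 484 and 583 TPM in MNF_ciHep, against 0 and 0.38 TPM in MNF_ciEPC. The difference between the origins at this step was called for 11 of these genes higher and 1 lower for MNF origin, beside 17.7% and 12% of all tested genes.

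Of the xenobiotic receptor genes, Nr1i2 was higher in MEF_ciHep than in MEF_ciEPC, while Nr1i3 was too low for a test. Nr1i2 (chr16:38248323-38294824, mm10), which encodes PXR, the receptor that switches on drug-clearing enzymes, was at 0 in all MEF, at 0 to 1.79 TPM (median 0) in MEF_ciEPC, and at 13.1, 11.2 and 7.4 TPM in MEF_ciHep. It rose in MEF_ciHep against MEF_ciEPC by 5.74 ± 0.81 (adjusted p = 0.00014), with no overlap, and by 6.74 without MEF_ciEPC series 1. Nr1i2 was 15.2 and 48.7 TPM in pHep, above all MEF_ciHep libraries, and the log2 fold change in MEF_ciHep against pHep was -1.60 ± 0.57 (adjusted p = 0.0462). This last call was lost without any 1 of the 3 MEF_ciHep libraries (adjusted p = 0.0626, 0.0955 and 0.129), without pHep replicate 2 (-0.79, adjusted p = 0.46) and without MEF_ciEPC series 2 passage 22 (adjusted p = 0.0503). In the MNF line Nr1i2 was at 0 in MNF and MNF_ciEPC and at 0.23 and 0 TPM in MNF_ciHep, where 1 count in all stood against 185 in pHep, a ratio of 214 with a 95% counting interval of 37.9 to 8485. ESC held a low level of 3.29 and 0.96 TPM, against 0.18 and 0 TPM in ESC_EPC, and this fall (adjusted p = 0.0145) was lost without ESC replicate 1 (adjusted p = 0.0742) or ESC_EPC replicate 2 (adjusted p = 0.087).

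Nr1i3, which encodes the related receptor CAR, stayed at or below 1.46 TPM outside pHep and had 0.43 and 3.15 TPM in pHep. Its exons share 74.9% of their bases with Tomm40l on the opposite strand, and use of strand in the counting is not given in the sources used here. Of 18 tested CAR and PXR target genes, 14 were higher and 0 lower in MEF_ciHep against MEF_ciEPC, beside 17.8% and 14.8% of all tested genes. In MNF_ciHep against MNF_ciEPC 2 were higher and 1 lower, beside 19.5% and 10.8%. Cyp3a13, a drug-oxidising cytochrome P450, had 87.4 to 116 TPM in MEF_ciHep, against 0 to 2.13 TPM in MEF_ciEPC (8.26 ± 0.71, adjusted p = 6.5e-07). Abcc3, an exporter of conjugated drugs and bile acids, had 141 to 275 TPM in MEF_ciHep, against 0 to 6.41 TPM in MEF_ciEPC (7.58 ± 0.56, adjusted p = 1.72e-07). Against pHep, MEF_ciHep had 4 of these targets higher and 3 lower, beside 15.1% and 10.8% of all tested genes. MNF_ciHep had 1 higher and 12 lower, beside 18.4% and 13.4%. The bile duct side exporter Abcc2 was among the lower ones in MEF_ciHep, with 2.0 to 4.64 TPM against 69.8 and 124 TPM in pHep (-5.45 ± 0.53, adjusted p = 4.91e-06).

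Vdr, the vitamin D receptor, reached its highest levels in MNF and MNF_ciHep. It had 11.7 and 19.97 TPM in MNF, 0.08 and 0.09 TPM in MNF_ciEPC and 8.84 and 13.9 TPM in MNF_ciHep. MNF_ciEPC held 2 counts of Vdr, against 310 in MNF (ratio 195, 95% counting interval 53.6 to 1619, adjusted p = 6.54e-07), and MNF_ciHep held 119 (ratio 143, 38.8 to 1197, adjusted p = 4.4e-06). In the MEF line it had 7.41, 5.44 and 6.96 TPM in MEF, 0 to 2.69 TPM (median 0.38) in MEF_ciEPC and 2.61, 3.22 and 3.99 TPM in MEF_ciHep, a fall of 2.78 ± 0.48 (adjusted p = 0.00021) and then a rise of 2.14 ± 0.48 (adjusted p = 0.0018), although 1 MEF_ciEPC library exceeded the lowest MEF_ciHep library. Vdr was higher in MNF_ciHep than in pHep, which had 0.15 and 3.23 TPM, by 4.40 ± 0.64 (adjusted p = 7.79e-05), and by 3.63 and 5.79 without pHep replicate 1 or 2. In MEF_ciHep against pHep it was higher by 2.63 ± 0.64 (adjusted p = 0.00457) although the groups overlap, by 1.87 (adjusted p = 0.0716) without pHep replicate 1 and by 4.03 without pHep replicate 2. The vitamin D response gene S100g was at 12607 and 13892 TPM in MNF_ciEPC, against 0 in both MNF libraries. In MEF_ciEPC it had 1466 to 9354 TPM in the 9 libraries other than series 2 passage 22, and 0 in that one. S100g is a single gene of its list, and the part of Vdr in its level was not tested.

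The oxysterol receptors, which sense cholesterol derivatives, differed from each other in range. Nr1h2 encodes LXR beta, the broadly expressed form, and was present in every library, from 49.7 TPM in MEF to 142 TPM in MNF_ciEPC. It was called in no comparison. Nr1h3 encodes LXR alpha, the form known from liver, and had 41.5 and 40.1 TPM in pHep, above every other library. It had 0.33, 0.77 and 1.07 TPM in MEF, 0.59 to 6.11 TPM (median 2.69) in MEF_ciEPC and 8.35, 11.6 and 6.35 TPM in MEF_ciHep. The rise in MEF_ciHep against MEF_ciEPC was 2.49 ± 0.52 (adjusted p = 0.0011), and MEF_ciHep lay below pHep by a log2 fold change of -2.40 ± 0.46 (adjusted p = 0.000772). Nr1h3 also rose in MNF_ciHep against MNF_ciEPC, with 9.29 and 6.84 TPM in MNF_ciHep and 1.16 and 1.66 TPM in MNF_ciEPC (2.32 ± 0.61, adjusted p = 0.00666), a call lost without MNF_ciEPC replicate 1 (2.0, adjusted p = 0.0675) or MNF_ciHep replicate 1 (1.43, adjusted p = 0.205). Against pHep it was lower in MNF_ciHep by a log2 fold change of -2.71 ± 0.54 (adjusted p = 0.00106), and of -3.49 without MNF_ciHep replicate 1. Nr1h3 is also expressed by liver macrophages, and the summed level of 11 macrophage markers was 37.0 to 108 TPM in MEF_ciHep, against 113 and 199 TPM in pHep. Of the 11, the number above 0 was 2, 3 and 3 in the MEF_ciHep libraries and 7 and 11 in the pHep libraries. Of the 7 of these markers that were tested, 6 were lower in MEF_ciHep against pHep, beside 10.8% of all tested genes. The part of these markers in the level of Nr1h3 was not tested.

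Of 14 tested LXR target genes, 8 were higher and 1 lower in MEF_ciHep against MEF_ciEPC, beside 17.8% and 14.8% of all tested genes. In MNF_ciHep against MNF_ciEPC 5 of them were higher and 2 lower, beside 19.5% and 10.8%. The cholesterol exporter Abcg1 had 48.1 to 63.5 TPM in MEF_ciHep, against 1.17 to 18.6 TPM in MEF_ciEPC (3.56 ± 0.39, adjusted p = 4.63e-06), and the lipase Lpl had 26.2 to 52.2 TPM, against 1.41 to 15.1 TPM (3.87 ± 0.45, adjusted p = 6.87e-06). The desaturase Scd1 was the 1 lower gene in MEF_ciHep. Abcg1 was also higher in MEF_ciHep than in pHep, which had 1.2 and 2.17 TPM (5.22 ± 0.50, adjusted p = 1.8e-06).

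The atypical receptors without a DNA-binding domain marked opposite ends of the series. Nr0b2 encodes SHP, the repressor that bile acids induce in liver, and was highest in pHep, with 1.79 and 17.9 TPM, followed by 0, 1.46 and 0.59 TPM in MEF_ciHep. It stayed at or below 0.98 TPM in all other libraries and was not tested. Of 10 genes of the bile acid receptor and SHP circuit 4 were tested, with 2 higher and 0 lower in MEF_ciHep against MEF_ciEPC, 0 and 1 in MNF_ciHep against MNF_ciEPC, 1 and 2 in MEF_ciHep against pHep, and 0 and 3 in MNF_ciHep against pHep. The shares of all tested genes were 17.8% and 14.8%, 19.5% and 10.8%, 15.1% and 10.8%, and 18.4% and 13.4%, in the same order. Nr0b1 (chrX:86191764-86195947, mm10) encodes DAX1, known from steroid-producing glands and as part of the naive stem cell network. It had 1.06 and 1.41 TPM in ESC_EPC, against 90.7 and 245 TPM in ESC, and fell by 7.28 ± 1.72 (adjusted p = 0.00896), a call lost without ESC_EPC replicate 1 (adjusted p = 0.0719) or ESC_EPC replicate 2 (adjusted p = 0.0632), and -6.27 without ESC replicate 2. Among MEF_ciEPC libraries Nr0b1 was at 111 TPM in series 2 passage 22 and at 0 to 1.09 TPM in the other 9, against 0 in all MEF. The call of at least 38.8-fold higher in MEF_ciEPC than in MEF, and of at least 37.3-fold lower in MEF_ciHep, where it was at 0, both rest on that library. Without it the adjusted p was 0.185 against MEF and 0.195 for MEF_ciHep. Both calls were also lost without all of series 2 (adjusted p = 0.324 and 0.339). The call against MEF was lost without any 1 MEF library (adjusted p = 0.0641 to 0.0777), and the call in MEF_ciHep without any 1 MEF_ciHep library (adjusted p = 0.0618 to 0.103).

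**Figure D3:**
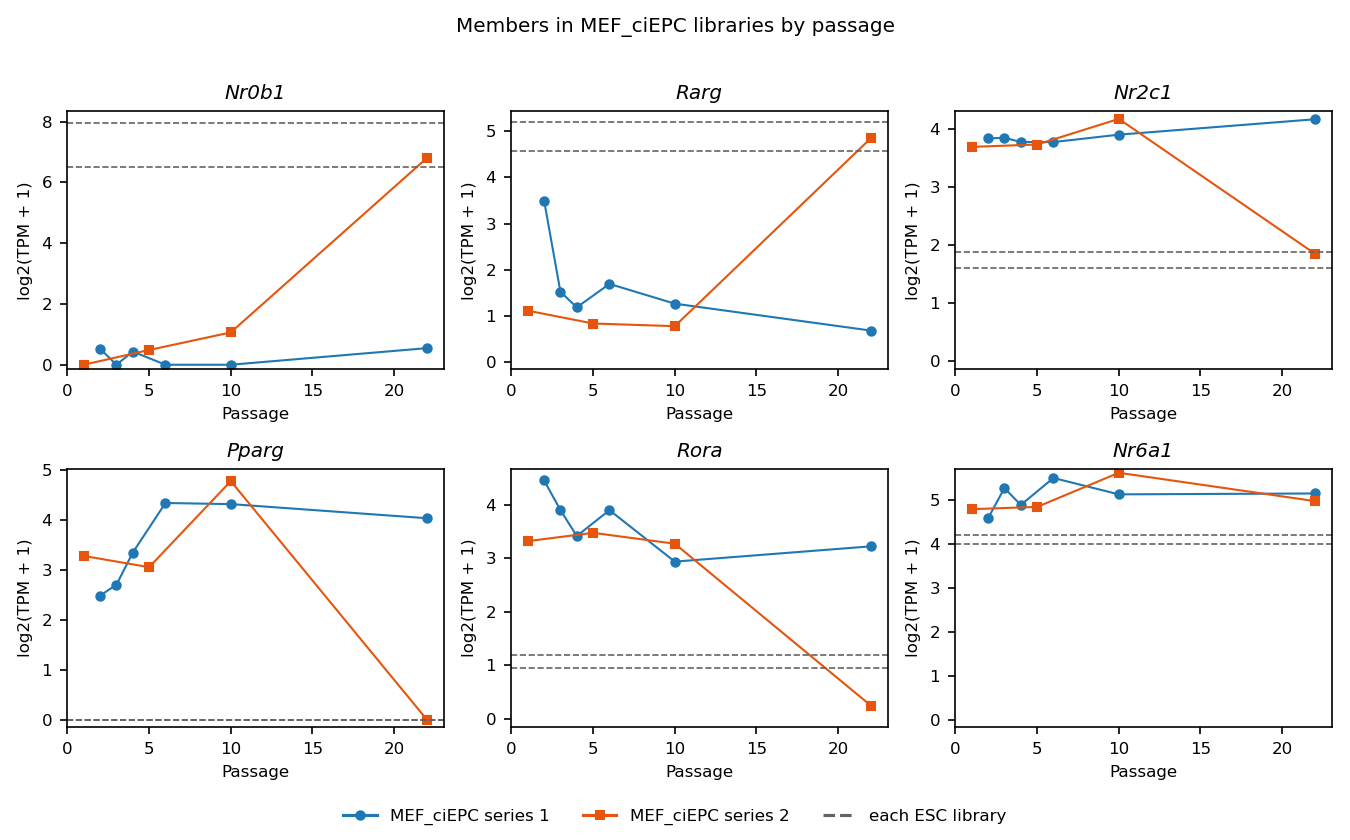
Level of 6 members as log2(TPM + 1) in the 10 MEF_ciEPC libraries by passage, with series 1 in blue, series 2 in orange and each ESC library as a dashed line. At passage 22 of series 2, Nr0b1, Rarg and Nr2c1 lie at or between the ESC levels, Pparg is at 0 and Rora is at 0.19 TPM, while series 1 at passage 22 stays with the earlier passages and Nr6a1 does not separate the series.

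Peroxisome proliferator-activated receptors sense fatty acids, and the members Pparg and Ppard were both higher in MEF_ciHep than in MEF_ciEPC and in pHep. Pparg (chr6:115360951-115490399, mm10), the regulator of fat storage, had 6.04, 2.62 and 4.47 TPM in MEF, 0 to 26.4 TPM (median 8.92) in MEF_ciEPC and 93.0, 89.7 and 68.4 TPM in MEF_ciHep. The rise in MEF_ciHep against MEF_ciEPC was 3.28 ± 0.39 (adjusted p = 1.18e-05), with no overlap. Pparg in MEF_ciHep also exceeded pHep, with 10.6 and 9.67 TPM, by 2.97 ± 0.41 (adjusted p = 6.1e-05). In the MNF line it had 20.1 and 16.2 TPM in MNF, 3.89 and 5.32 TPM in MNF_ciEPC and 21.5 and 15.6 TPM in MNF_ciHep, a fall of 2.53 ± 0.44 (adjusted p = 0.000233) and a rise of 2.52 ± 0.46 (adjusted p = 0.000603). The first steps of both lines differed in direction for Pparg, as MEF_ciEPC was above MEF by 1.17 ± 0.39 (adjusted p = 0.0237), and the test of that difference gave -3.70 ± 0.59 (adjusted p = 0.00121). The call of the rise in MEF_ciEPC was lost without MEF replicate 2 (0.93), MEF replicate 3 (1.0, adjusted p = 0.0862), MEF_ciEPC series 1 (adjusted p = 0.0535) or MEF_ciEPC series 2 (adjusted p = 0.0519), and Pparg was at 0 in series 2 passage 22. It was at 0 in ESC and at 0.81 and 0 TPM in ESC_EPC, where 3 counts stood against 243 in MEF_ciEPC (ratio 28.1, 95% counting interval 9.5 to 137).

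Ppard, the broadly expressed form, had 45.0, 62.9 and 109 TPM in MEF_ciHep, against 10.1 to 35.5 TPM (median 18.0) in MEF_ciEPC and 13.9 and 22.6 TPM in pHep. It rose against MEF_ciEPC by 2.05 ± 0.31 (adjusted p = 6.92e-05) and was above pHep by 1.72 ± 0.32 (adjusted p = 0.000642). Both ciEPC groups lay below their fibroblasts, by a log2 fold change of -1.24 ± 0.30 (adjusted p = 0.00309) in MEF_ciEPC and -1.62 ± 0.33 (adjusted p = 0.000672) in MNF_ciEPC. ESC_EPC had 68.0 and 63.4 TPM, against 20.8 and 16.6 TPM in ESC (1.72 ± 0.33, adjusted p = 0.000691). The rise of Ppard in MNF_ciHep against MNF_ciEPC (1.05 ± 0.34, adjusted p = 0.0216) was lost without any 1 of the 4 libraries (adjusted p = 0.0547 to 0.196).

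Of 17 tested PPAR target genes, 11 were higher and 0 lower in MEF_ciHep against MEF_ciEPC, beside 17.8% and 14.8% of all tested genes. Pdk4, which holds back glucose oxidation, had 57.6 to 62.7 TPM in MEF_ciHep, against 0 to 7.29 TPM in MEF_ciEPC (6.31 ± 0.70, adjusted p = 5e-06), and Acadm, an enzyme of fatty acid oxidation, had 161 to 253 TPM, against 32.6 to 122 TPM (2.32 ± 0.22, adjusted p = 1.45e-06). In MNF_ciHep against MNF_ciEPC 5 were higher and 2 lower, beside 19.5% and 10.8% of all tested genes. Against pHep, 2 were higher and 7 lower in MEF_ciHep, beside 15.1% and 10.8% of all tested genes. In MNF_ciHep 0 were higher and 12 lower, beside 18.4% and 13.4%. The lipid droplet gene Plin2 was among the lower ones in MEF_ciHep, with 182 to 271 TPM, against 1031 and 1658 TPM in pHep (-2.68 ± 0.23, adjusted p = 5.85e-07).

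**Figure D4:**
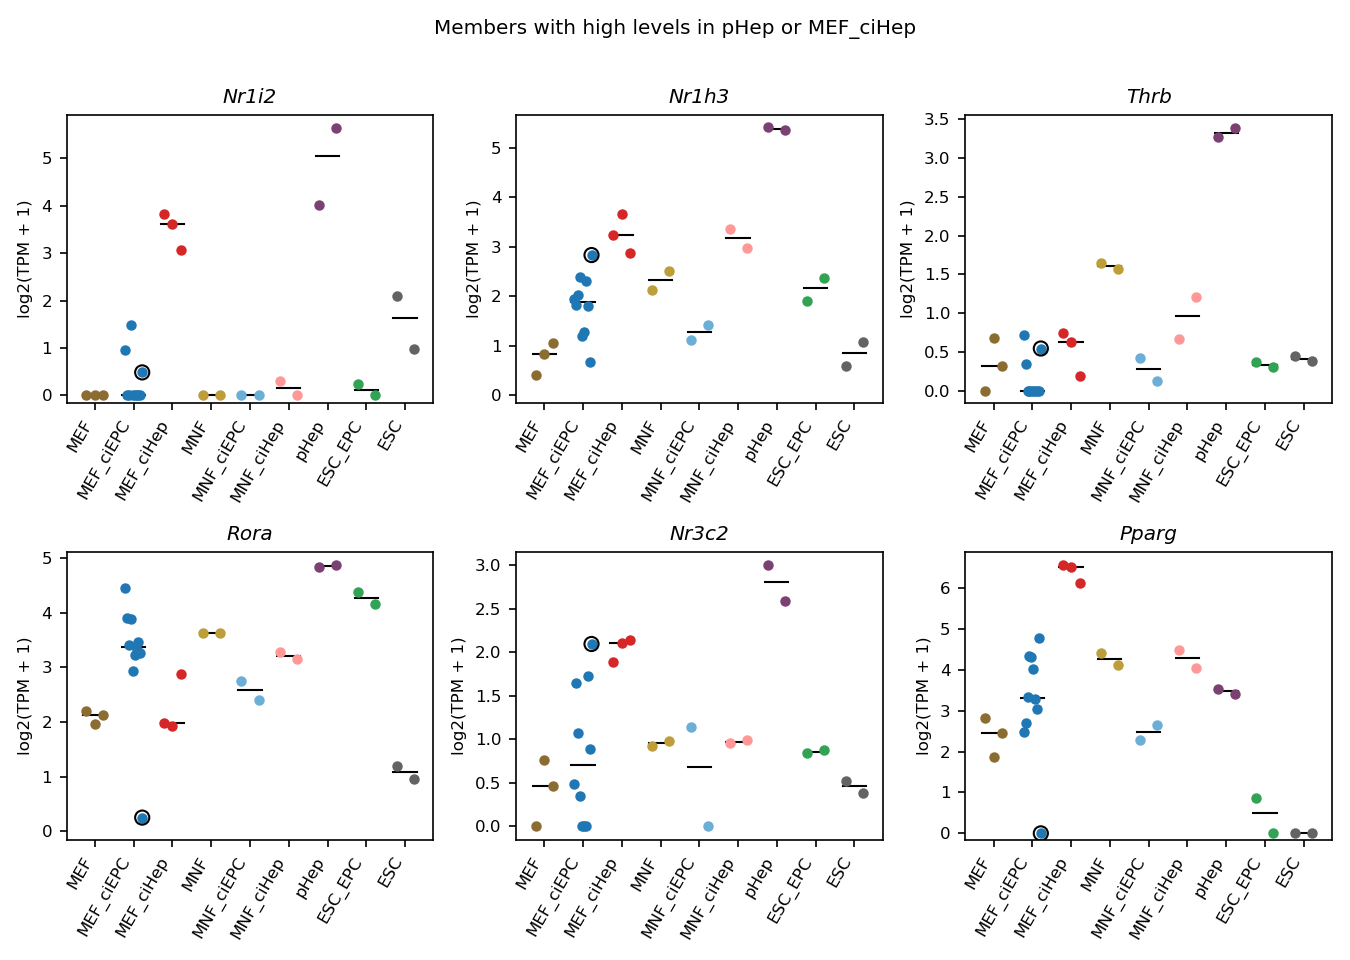
Level of 6 members as log2(TPM + 1) in each library (points) of the 9 groups, with group medians as lines and MEF_ciEPC series 2 passage 22 circled. Nr1i2 is high in MEF_ciHep and pHep, Thrb and Nr1h3 are highest in pHep, and Pparg is highest in MEF_ciHep, at 68.4 to 93.0 TPM.

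The thyroid hormone receptors had their highest levels in different groups, Thrb in pHep and Thra in MNF. Thrb (chr14:17660261-18038090, mm10), the form known as the main thyroid hormone receptor of liver, had 8.63 and 9.45 TPM in pHep and at most 2.13 TPM in any other library. It was lower in MEF_ciHep, with 0.68, 0.55 and 0.14 TPM, by a log2 fold change of -4.42 ± 0.72 (adjusted p = 0.000212), and in MNF_ciHep, with 0.59 and 1.31 TPM, by -3.49 ± 0.81 (adjusted p = 0.00307, -4.08 without MNF_ciHep replicate 2). MNF_ciEPC, with 0.34 and 0.09 TPM of Thrb, lay below MNF, with 2.13 and 1.98 TPM, by -3.30 ± 0.86 (adjusted p = 0.00457), or -4.80 without MNF_ciEPC replicate 1, and this was lost without MNF_ciEPC replicate 2 (adjusted p = 0.0627). Thra, the form of heart, bone and brain, had its highest levels in MNF, with 174 and 169 TPM. These fell to 6.86 and 6.67 TPM in MNF_ciEPC, a log2 fold change of -4.89 ± 0.39 (adjusted p = 1.37e-07), and MNF_ciHep had 51.0 and 33.2 TPM (3.04 ± 0.38 against MNF_ciEPC, adjusted p = 2.61e-05). In the MEF line Thra had 27.0, 43.4 and 31.2 TPM in MEF, 3.12 to 37.7 TPM (median 6.21) in MEF_ciEPC and 36.3, 35.1 and 30.2 TPM in MEF_ciHep. The changes were -2.55 ± 0.34 (adjusted p = 1.86e-05) and then 2.40 ± 0.34 (adjusted p = 4.19e-05). The 37.7 TPM belong to series 1 passage 2, which had 363 TPM of summed fibroblast markers, against 6.43 to 49.1 TPM in the other MEF_ciEPC libraries. Without that library the changes of Thra were -3.15 and 2.99, and the part of those markers was not tested.

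In MNF_ciHep against pHep, which had 7.47 and 26.7 TPM, Thra was higher by 1.37 ± 0.37 (adjusted p = 0.00805), by 2.18 without pHep replicate 2, and the call was lost without MNF_ciHep replicate 1 (adjusted p = 0.08) or pHep replicate 1 (adjusted p = 0.0867). It was also higher in ESC_EPC, with 51.6 and 51.5 TPM, than in ESC, with 16.4 and 16.7 TPM (1.13 ± 0.35, adjusted p = 0.0165), a call lost without ESC_EPC replicate 1 (adjusted p = 0.116), ESC replicate 1 (adjusted p = 0.0669) or ESC replicate 2 (adjusted p = 0.0807). Thra and Nr1d1 overlap tail to tail in 263 exonic bases, 5.7% of Thra and 8.5% of Nr1d1. Of 8 tested thyroid hormone and vitamin D response genes, 2 were higher and 1 lower in MEF_ciHep against MEF_ciEPC, near the 17.8% and 14.8% of all tested genes. In MNF_ciHep against MNF_ciEPC 1 was higher and 2 lower, beside 19.5% and 10.8%. Thrsp, a lipogenic gene that thyroid hormone induces in liver, had 0 to 0.65 TPM in MEF_ciHep and 0 and 0.92 TPM in MNF_ciHep, against 18.3 and 28.4 TPM in pHep.

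Of the 4 clock receptors, 3 rose in the stem cell route and 3 were lower in MNF_ciEPC than in MNF, beside 18.6% of all tested genes higher in ESC_EPC against ESC and 21.9% lower in MNF_ciEPC against MNF. Nr1d1 and Nr1d2 encode REV-ERB alpha and beta, which repress the clock gene Arntl, and the ROR receptors activate it. Nr1d1 had 37.6 and 36.1 TPM in ESC_EPC, against 9.83 and 8.61 TPM in ESC (1.83 ± 0.35, adjusted p = 0.000721). Rora had 19.9 and 16.8 TPM in ESC_EPC, against 1.29 and 0.94 TPM in ESC (4.09 ± 0.37, adjusted p = 1.2e-06). Nr1d2 had 41.9 and 32.3 TPM in ESC_EPC, against 11.3 and 21.2 TPM in ESC (1.26 ± 0.31, adjusted p = 0.00427), 1.96 without ESC replicate 2, and its call was lost without ESC_EPC replicate 1 (adjusted p = 0.0553) or ESC replicate 1 (0.87). Of 15 tested clock genes, 8 were higher and 0 lower in ESC_EPC against ESC, among them Bhlhe41 with 46.6 and 66.3 TPM, against 0.44 and 1.14 TPM (6.86 ± 0.49, adjusted p = 1.66e-07).

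In MNF_ciEPC both REV-ERB genes were below MNF, Nr1d1 with 7.63 and 7.05 TPM against 21.6 and 17.1 TPM (-1.69 ± 0.36, adjusted p = 0.000931) and Nr1d2 with 4.28 and 2.92 TPM against 16.4 and 15.3 TPM (-2.19 ± 0.34, adjusted p = 6.15e-05). Both were higher again in MNF_ciHep, by 3.18 ± 0.37 and 2.88 ± 0.35 (adjusted p = 1.2e-05 and 1.7e-05), and in MEF_ciHep against MEF_ciEPC, by 1.78 ± 0.32 and 1.45 ± 0.29 (adjusted p = 0.0003 and 0.00088). The clock repressor Cry1 was lower at the same step, with 5.33 to 7.03 TPM in MEF_ciHep, against 19.1 to 54.9 TPM in MEF_ciEPC (-2.20 ± 0.21, adjusted p = 1.57e-06), and 7.13 and 8.65 TPM in MNF_ciHep, against 38.3 and 39.7 TPM in MNF_ciEPC (-2.15 ± 0.25, adjusted p = 1.31e-05). Cry1 was picked from the tested clock genes by its small adjusted p, so it does not speak for the others. Nr1d1 in MNF_ciHep, with 37.2 and 67.6 TPM, was above pHep, with 20.02 and 23.2 TPM, by 1.06 ± 0.34 (adjusted p = 0.0216), a call lost without MNF_ciHep replicate 2 (0.61), pHep replicate 1 (adjusted p = 0.059) or pHep replicate 2 (adjusted p = 0.0889).

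Rora (chr9:68653786-69388246, mm10), a constitutive activator known in liver for lipid metabolism, was the member of this family that rose in MEF_ciEPC. It had 3.61, 2.90 and 3.39 TPM in MEF, 0.19 to 20.8 TPM (median 9.31) in MEF_ciEPC and 2.96, 2.79 and 6.33 TPM in MEF_ciHep. The rise in MEF_ciEPC against MEF was 1.48 ± 0.27 (adjusted p = 0.000399) and the fall in MEF_ciHep against MEF_ciEPC was -1.49 ± 0.28 (adjusted p = 0.000469). The 9 MEF_ciEPC libraries other than series 2 passage 22 had 6.65 to 20.8 TPM, above every MEF and MEF_ciHep library. pHep had 27.6 and 28.5 TPM of Rora, above all ciHep libraries, and the log2 fold change was -3.17 ± 0.28 (adjusted p = 8.77e-07) in MEF_ciHep and -2.02 ± 0.31 (adjusted p = 0.000131) in MNF_ciHep. MNF had 11.4 and 11.4 TPM, MNF_ciEPC 5.74 and 4.32 TPM and MNF_ciHep 8.68 and 7.88 TPM, with no call between these neighbours. Rorb, known from retina and brain, was at or below 1.23 TPM outside MNF_ciHep, which had 3.32 and 1.12 TPM. MNF_ciEPC held 0.77 expected counts of Rorb, against 15 in MNF (ratio 18.9, 95% counting interval 2.91 to 795, adjusted p = 0.0225, lost without MNF replicate 2 or either MNF_ciEPC library, adjusted p = 0.0533 to 0.145), and MNF_ciHep held 60.8 (ratio 147, 25.4 to 5896, adjusted p = 0.0007). Its call in MNF_ciHep against pHep (3.92 ± 1.11, adjusted p = 0.0106) was lost without MNF_ciHep replicate 1 or either pHep library (adjusted p = 0.0536 to 0.125).

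The steroid receptors were led by the glucocorticoid receptor gene Nr3c1. It had 54.7 and 52.1 TPM in ESC_EPC, against 2.71 and 2.55 TPM in ESC, a rise of 4.20 ± 0.25 (adjusted p = 3.61e-08). In the MEF line Nr3c1 had 27.7, 23.8 and 27.2 TPM in MEF, 4.32 to 25.4 TPM (median 10.2) in MEF_ciEPC and 29.6, 23.4 and 27.3 TPM in MEF_ciHep, with changes of -1.35 ± 0.19 (adjusted p = 4.25e-05) and 1.60 ± 0.20 (adjusted p = 1.2e-05). In the MNF line it had 43.4 and 29.9 TPM in MNF, 16.8 and 15.9 TPM in MNF_ciEPC and 14.0 and 11.2 TPM in MNF_ciHep. It fell at the first step by 1.28 ± 0.21 (adjusted p = 9.62e-05), and at the next step the change was -0.06 ± 0.22 (adjusted p = 0.861). MEF_ciHep and pHep, with 17.7 and 21.5 TPM, gave a change of 0.29 ± 0.19 that did not pass (adjusted p = 0.269).

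Of 15 tested glucocorticoid and mineralocorticoid response genes, 10 were higher and 0 lower in MEF_ciHep against MEF_ciEPC, beside 17.8% and 14.8% of all tested genes. Tsc22d3, a direct glucocorticoid target, had 199 to 258 TPM in MEF_ciHep, against 12.8 to 80.8 TPM in MEF_ciEPC (3.6 ± 0.27, adjusted p = 1.73e-07). Fkbp5, a chaperone that the receptor induces and that holds the receptor back, had 186 to 250 TPM in MEF_ciHep, against 51.0 to 135 TPM in MEF_ciEPC (1.67 ± 0.18, adjusted p = 4.55e-06). In MNF_ciHep against MNF_ciEPC 6 genes were higher and 1 lower, beside 19.5% and 10.8% of all tested genes. The lower one was Fkbp5, with 8.48 and 13.2 TPM in MNF_ciHep, against 109 and 145 TPM in MNF_ciEPC (-3.55 ± 0.23, adjusted p = 1.58e-07). Tsc22d3 in MNF_ciHep had 9.93 and 14.4 TPM, against 60.3 and 111 TPM in pHep (-3.02 ± 0.31, adjusted p = 3.51e-06).

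Nr3c2, the mineralocorticoid receptor gene, was a low member that was highest in pHep, with 7.0 and 4.99 TPM. MEF_ciHep had 2.71, 3.30 and 3.41 TPM, against 0 to 3.27 TPM (median 0.625) in MEF_ciEPC, a rise of 3.04 ± 0.65 (adjusted p = 0.00131) that was 2.22 without series 1 and 4.28 without series 2. MNF_ciEPC had 1.21 and 0 TPM and held 1 count of Nr3c2, against 23 in MNF (ratio 29.0, 95% counting interval 4.7 to 1193, adjusted p = 0.00137), and 14 in MNF_ciHep (ratio 33.7, 5.13 to 1426, adjusted p = 0.00204), while in TPM these groups overlap. Nr3c2 was lower in MNF_ciHep than in pHep (-2.48 ± 0.69, adjusted p = 0.00945), which was lost without MNF_ciHep replicate 1 (adjusted p = 0.0722) or replicate 2 (adjusted p = 0.0507).

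The sex steroid receptors were low throughout. Esr1, the estrogen receptor alpha gene, had its highest levels in pHep, with 2.98 and 6.03 TPM. It was at 0 in all MEF_ciHep libraries, at least 28.3-fold lower than pHep against the floor of 3 counts over the group (adjusted p = 8.93e-05). It was also at 0 in MNF_ciEPC, at least 12.2-fold lower than in MNF, which had 1.32 and 1.07 TPM (adjusted p = 0.000301). MNF_ciHep had 1.72 and 1.66 TPM of Esr1, at least 4.84-fold higher than MNF_ciEPC (adjusted p = 0.00421, lost without MNF_ciHep replicate 1, adjusted p = 0.124). Against pHep, Esr1 was lower in MNF_ciHep by a log2 fold change of -2.51 ± 0.75 (adjusted p = 0.0172), -3.66 without MNF_ciHep replicate 1, a call lost without MNF_ciHep replicate 2 (adjusted p = 0.116) or pHep replicate 2 (adjusted p = 0.122). In MEF_ciEPC it had 0 to 0.53 TPM, against 0.37, 1.57 and 0.43 TPM in MEF (-2.59 ± 0.73, adjusted p = 0.0111), lost without MEF replicate 2 (adjusted p = 0.0585) or MEF_ciEPC series 1 (adjusted p = 0.118). Esr2 did not exceed 0.6 TPM in any library.

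Pgr, the progesterone receptor gene, was highest in ESC_EPC, with 3.35 and 4.47 TPM, against 0.12 and 0.27 TPM in ESC (4.06 ± 0.90, adjusted p = 0.00222). MEF_ciEPC, with 0 to 1.17 TPM, lay below ESC_EPC by -4.22 ± 0.81 (adjusted p = 0.000824), and by -5.11 without series 1 passage 2. MNF_ciHep had 1.84 and 0.55 TPM and pHep 0 and 0, at least 4.78-fold higher in MNF_ciHep (adjusted p = 0.0065, lost without MNF_ciHep replicate 1, adjusted p = 0.0604). The further calls of Pgr, lower in MEF_ciEPC against MEF (adjusted p = 0.0295) and higher in MNF_ciHep against MNF_ciEPC (adjusted p = 0.0421), were lost without MEF replicate 2 or 3, without either MEF_ciEPC series (adjusted p = 0.0579 to 0.14), and without either MNF_ciEPC library or MNF_ciHep replicate 1 (adjusted p = 0.129 to 0.499). Of 9 tested estrogen and progesterone response genes, 4 were higher and 1 lower in MEF_ciEPC against MEF, beside 17.6% and 15.8% of all tested genes. In MNF_ciEPC against MNF 6 were higher and 1 lower, beside 18.4% and 21.9%. In ESC_EPC against ESC 2 were higher and 1 lower, near the 18.6% and 14.7% of all tested genes.

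The estrogen-related receptors, orphans known for the control of mitochondrial energy genes together with the coactivator PGC-1 alpha, were called higher in ciEPCs, Esrrg in both lines and Esrra in MNF_ciEPC. Esrrg had 4.84 and 5.50 TPM in MNF_ciEPC, against 0.18 and 0.15 TPM in MNF (4.76 ± 1.29, adjusted p = 0.00629). In MEF_ciEPC it had 0 to 7.22 TPM (median 4.28), against 0, 0.33 and 0.11 TPM in MEF (4.11 ± 1.13, adjusted p = 0.00795, 5.48 without MEF replicate 2). It was at 0 in series 1 passage 2 and in series 2 passage 22. ESC_EPC had 0.25 and 0 TPM of Esrrg, 3 counts against 205 in MEF_ciEPC (ratio 23.7, 95% counting interval 7.99 to 116), a call lost without ESC_EPC replicate 2 (adjusted p = 0.111). Esrra had 67.5 and 98.2 TPM in MNF_ciEPC, against 23.8 and 28.9 TPM in MNF (1.29 ± 0.35, adjusted p = 0.00568), while in MEF_ciEPC, with 17.6 to 87.0 TPM (median 39.5), against 25.6, 23.1 and 27.3 TPM in MEF, the change of 0.53 ± 0.31 did not pass (adjusted p = 0.18). Esrra was lower in MNF_ciHep, with 32.2 and 35.6 TPM, than in MNF_ciEPC by -1.08 ± 0.36 (adjusted p = 0.0242), a call lost without MNF_ciEPC replicate 2 (adjusted p = 0.121) or either MNF_ciHep library (adjusted p = 0.0654 and 0.0701).

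Among 20 tested coregulator genes, the PGC-1 alpha gene Ppargc1a had 31.7 and 31.9 TPM in MNF_ciEPC, against 0.96 and 1.94 TPM in MNF (5.80 ± 0.64, adjusted p = 2.33e-06), and 0 to 41.3 TPM in MEF_ciEPC, against 0.30 to 1.39 TPM in MEF (6.00 ± 0.61, adjusted p = 1.37e-06). In all, 6 coregulators were higher and 2 lower in MEF_ciEPC against MEF, beside 17.6% and 15.8% of all tested genes. In MNF_ciEPC against MNF 3 were higher and 5 lower, where the shares of 15% and 25% are near the 18.4% and 21.9% of all tested genes. At the next step 0 were higher and 2 lower in MEF_ciHep against MEF_ciEPC, beside 17.8% and 14.8% of all tested genes. In MNF_ciHep against MNF_ciEPC 1 was higher and 4 lower, beside 19.5% and 10.8%.

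The COUP-TF genes separated the ciHeps by origin. Nr2f1 and Nr2f2 encode COUP-TFI and COUP-TFII, orphan receptors known from mesenchyme, vessels and neurons. Nr2f1 (chr13:78188973-78199757, mm10) had 14.0 and 20.4 TPM in MNF, 0.80 and 0.61 TPM in MNF_ciEPC and 47.0 and 12.5 TPM in MNF_ciHep. It fell by 3.96 ± 0.70 (adjusted p = 0.000316) and then rose by 5.11 ± 0.71 (adjusted p = 0.000106), or 4.02 without MNF_ciHep replicate 1. In the MEF line Nr2f1 had 16.4, 22.7 and 11.9 TPM in MEF, 0 to 10.4 TPM (median 2.06) in MEF_ciEPC and 0 in all 3 MEF_ciHep libraries. It fell in MEF_ciEPC by 3.24 ± 0.59 (adjusted p = 0.000516) and was at least 6.87-fold lower again in MEF_ciHep (adjusted p = 0.00177). pHep held 0 and 1.22 TPM, or 1 count against 167 in MNF_ciHep (ratio 145, 95% counting interval 25.6 to 5744).

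Nr2f2 had 25.7 and 23.4 TPM in MNF, 2.01 and 1.32 TPM in MNF_ciEPC and 149 and 67.1 TPM in MNF_ciHep, above every other library. It fell by 3.71 ± 0.51 (adjusted p = 2.23e-05) and rose by 5.99 ± 0.53 (adjusted p = 1.53e-06), or 5.27 without MNF_ciHep replicate 1. MNF_ciHep exceeded pHep, with 6.78 and 18.1 TPM, by 3.41 ± 0.47 (adjusted p = 5.09e-05), or 2.80 without MNF_ciHep replicate 1. In MEF_ciEPC Nr2f2 had 0.24 to 22.3 TPM (median 12.7), against 34.2, 37.5 and 19.6 TPM in MEF (-2.24 ± 0.41, adjusted p = 0.000332), and MEF_ciHep had 12.8, 26.7 and 18.5 TPM. The call of 1.05 ± 0.40 in MEF_ciHep against MEF_ciEPC (adjusted p = 0.0403) was lost without series 2 passage 22 (0.90, adjusted p = 0.0599), series 2 (0.78), MEF_ciHep replicate 2 (0.77) or MEF_ciHep replicate 3 (adjusted p = 0.056). ESC_EPC had 0.58 and 0.89 TPM of Nr2f2, and MEF_ciEPC was higher by 3.12 ± 0.60 (adjusted p = 0.000697), or by 2.49 and 4.33 without ESC_EPC replicate 1 or 2.

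Nr2f6 encodes EAR2, an orphan repressor, and was present in all libraries at 18.8 to 117 TPM. Nr2f6 was lower in both ciEPC groups, in MEF_ciEPC by -1.18 ± 0.25 (adjusted p = 0.00106, and -0.90 without series 2) and in MNF_ciEPC by -1.07 ± 0.26 (adjusted p = 0.00296, and -0.89 or -0.88 without MNF replicate 2 or MNF_ciEPC replicate 1). It was higher in MEF_ciHep, with 68.6, 117 and 66.9 TPM, than in MEF_ciEPC, with 18.8 to 66.6 TPM, by 1.52 ± 0.25 (adjusted p = 0.000148). MNF_ciHep, with 52.9 and 29.9 TPM, lay below pHep, with 75.8 and 103 TPM, by -1.57 ± 0.28 (adjusted p = 0.000442). Its exons share 54.4% of their bases with Ocel1 on the opposite strand. If strand was not used in the counting, which is not given, reads of Nr2f6 and Ocel1 cannot be told apart there.

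The testicular orphan receptors Nr2c1 and Nr2c2 were even across most groups. Nr2c1 (TR2) had 14.3 and 13.8 TPM in ESC_EPC, against 2.01 and 2.67 TPM in ESC (2.40 ± 0.25, adjusted p = 3.43e-06). It was at 2.59 TPM in MEF_ciEPC series 2 passage 22, against 11.9 to 17.0 TPM in the other MEF_ciEPC libraries, and at 6.53 to 18.7 TPM in the remaining groups. Nr2c2 (TR4) was lowest in MNF_ciHep, with 4.82 and 3.61 TPM, against 17.0 and 15.8 TPM in MNF_ciEPC (-1.57 ± 0.22, adjusted p = 5.97e-05) and 14.5 and 10.4 TPM in pHep (-1.65 ± 0.22, adjusted p = 4.17e-05). All other libraries held 10.4 to 30.7 TPM. Its exons share 30.7% of their bases with Mrps25 on the opposite strand. Nr2e3, the photoreceptor orphan, was highest in MNF_ciEPC, with 1.71 and 4.48 TPM, and in MEF_ciEPC series 1 passage 4, with 3.02 TPM.

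The NR4A genes, immediate early orphan receptors that are switched on within a short time of growth factor, stress or cyclic AMP signals, rose together in MNF_ciHep against MNF_ciEPC. Their promoters are shown because the 3 genes moved together there, and because cyclic AMP acts on such genes through elements that hold the core TGACG. The stretches below, from RefSeq (GRCm38.p6), run from 250 bases before to 50 bases after the start of transcription, and promoters were found for 35 of the 38 members. Capitals mark TGACG or its reverse complement CGTCA, and no match overlaps another, although these letters overlap where they form TGACGTCA. Nr4a1 is read from chr15:101266596-101266895 on the plus strand, Nr4a2 from chr2:57123954-57124253 on the minus strand and Nr4a3 from chr4:48045055-48045354 on the plus strand.
Nr4a1: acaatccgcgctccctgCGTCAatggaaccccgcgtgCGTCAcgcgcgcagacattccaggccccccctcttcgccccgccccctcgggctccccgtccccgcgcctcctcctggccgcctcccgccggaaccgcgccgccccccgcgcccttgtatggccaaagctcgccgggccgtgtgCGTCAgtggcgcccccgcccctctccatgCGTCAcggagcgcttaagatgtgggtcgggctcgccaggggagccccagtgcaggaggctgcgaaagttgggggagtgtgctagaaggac
Nr4a2: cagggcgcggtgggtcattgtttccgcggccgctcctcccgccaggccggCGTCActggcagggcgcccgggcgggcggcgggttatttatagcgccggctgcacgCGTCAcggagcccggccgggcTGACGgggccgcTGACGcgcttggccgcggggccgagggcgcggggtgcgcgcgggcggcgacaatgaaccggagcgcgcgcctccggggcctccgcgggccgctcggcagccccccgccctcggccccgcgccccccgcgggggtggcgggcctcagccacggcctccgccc
Nr4a3: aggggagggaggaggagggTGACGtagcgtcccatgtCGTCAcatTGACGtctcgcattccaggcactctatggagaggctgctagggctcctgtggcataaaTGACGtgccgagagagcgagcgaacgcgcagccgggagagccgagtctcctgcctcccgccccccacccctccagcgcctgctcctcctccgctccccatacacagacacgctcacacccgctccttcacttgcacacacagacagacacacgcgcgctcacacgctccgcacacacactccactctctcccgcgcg

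Each of the 3 promoters held 4 such matches. Of 32851 promoters of the same length, 20.8% held at least 1 match on either strand and 76, or 0.23%, held at least 4. Among the members, those 3 were the only ones with at least 4. The full palindrome TGACGTCA was in 1.8% of all promoters and in 0 of these 3. The letters were chosen with the results known, and a match is a description of the sequence, not evidence that a factor binds there. The minimum of 4 is the count that these 3 promoters held. That they pass it was therefore fixed, and the 0.23% is not a test of them.

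Nr4a1 (Nur77) had 29.0 and 24.0 TPM in MNF, 13.1 and 10.7 TPM in MNF_ciEPC and 389 and 298 TPM in MNF_ciHep, the highest level of any member in any library. The rise in MNF_ciHep against MNF_ciEPC was 5.02 ± 0.63 (adjusted p = 2.54e-05), and MNF_ciHep exceeded pHep, with 8.0 and 7.58 TPM, by 5.26 ± 0.68 (adjusted p = 2.62e-05). Nr4a2 (Nurr1) had 15.7 and 23.5 TPM in MNF_ciHep, against 3.70 and 2.29 TPM in MNF_ciEPC (2.56 ± 0.51, adjusted p = 0.00107) and 0.96 and 0.41 TPM in pHep (4.25 ± 0.64, adjusted p = 0.000104, or 5.63 and 3.6 without pHep replicate 1 or 2). Nr4a3 (Nor1) had 11.6 and 17.2 TPM in MNF_ciHep, against 4.64 and 2.94 TPM in MNF_ciEPC (2.05 ± 0.61, adjusted p = 0.0148). The Nr4a3 call was lost without either MNF_ciEPC library (adjusted p = 0.0608 and 0.124) or MNF_ciHep replicate 2 (adjusted p = 0.0965). Against pHep, with 0 and 0.19 TPM, 168 counts of Nr4a3 in MNF_ciHep stood against 1, a ratio of 145 with a 95% counting interval of 25.8 to 5779 (adjusted p = 6.9e-05).

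With all libraries, none of the 3 was called in MEF_ciHep against MEF_ciEPC (Nr4a1 -0.48 ± 0.53, Nr4a2 -0.80 ± 0.48 and Nr4a3 -1.34 ± 0.59, adjusted p = 0.486, 0.187 and 0.0771). Without series 2 passage 22, where Nr4a3 was at 0, Nr4a3 was called lower at this step (-1.55, adjusted p = 0.0393). MEF_ciHep had 9.58, 9.25 and 12.7 TPM of Nr4a1, against 4.01 to 38.3 TPM (median 16.8) in MEF_ciEPC. The difference between the origins at this step was 5.50 ± 0.79 for Nr4a1, 3.37 ± 0.69 for Nr4a2 and 3.39 ± 0.85 for Nr4a3 (adjusted p = 0.000113, 0.00177 and 0.00643), or 4.55 for Nr4a1 without MEF_ciEPC series 1 and 4.14 for Nr4a3 without MEF_ciHep replicate 2. Nr4a1 varied among the MEF libraries, with 46.4, 112 and 23.0 TPM. MEF_ciEPC lay below them by -2.02 ± 0.52 (adjusted p = 0.00505), by -1.22 without MEF replicate 2 and -2.90 without series 1, and the call was lost without series 2 (-1.49, adjusted p = 0.0595). Nr4a2 was lower in MEF_ciEPC by -1.44 ± 0.46 (adjusted p = 0.0175), lost without MEF replicate 2 (-0.87) or either series (adjusted p = 0.0673 and 0.09), and in MNF_ciEPC by -1.51 ± 0.50 (adjusted p = 0.0189), lost without MNF replicate 2 (adjusted p = 0.154) or MNF_ciEPC replicate 2 (adjusted p = 0.161). Nr4a3 was higher in MNF_ciEPC against MNF by 1.76 ± 0.66 (adjusted p = 0.0352), 2.61 without MNF replicate 1, and that call was lost without MNF replicate 2 (adjusted p = 0.21) or MNF_ciEPC replicate 1 (adjusted p = 0.142). ESC_EPC had 2.36 and 2.86 TPM of Nr4a3, against 0 and 0.06 TPM in ESC (55 counts against 1, ratio 51.5, 95% counting interval 8.87 to 2071). The call of Nr4a3 in MEF_ciHep against pHep (adjusted p = 0.0458) rested on 29 counts against 1 (ratio 11.5, 1.91 to 471) and was lost without MEF_ciHep replicate 1 or 2 or either pHep library (adjusted p = 0.0566 to 0.277).

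**Figure D5:**
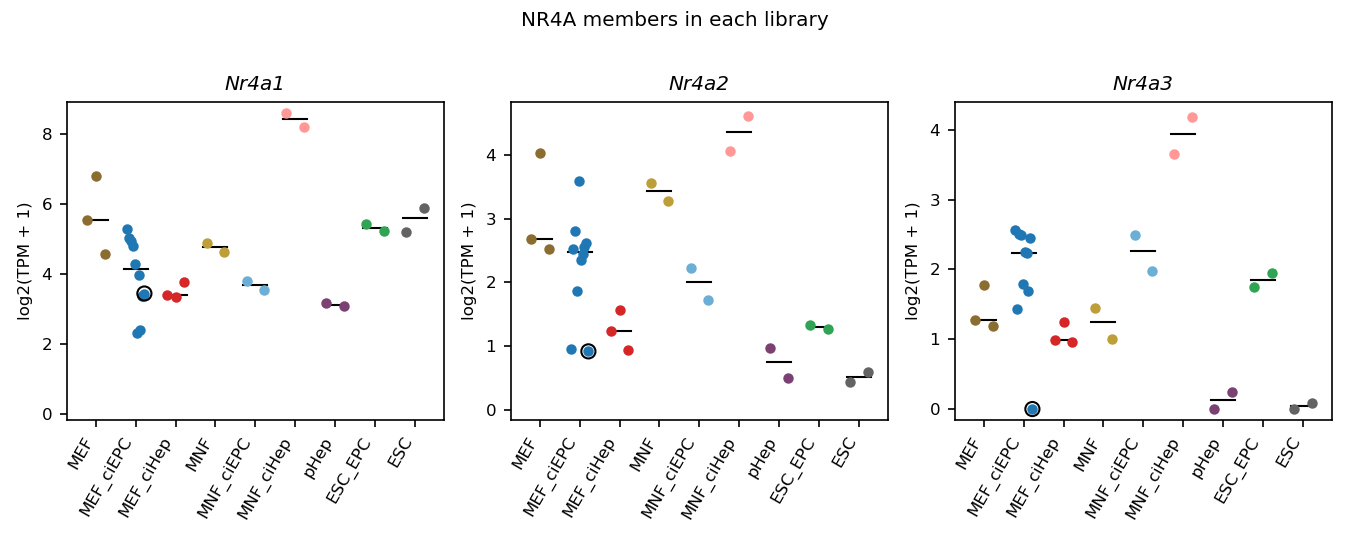
Level of the NR4A genes as log2(TPM + 1) in each library (points) of the 9 groups, with group medians as lines and MEF_ciEPC series 2 passage 22 circled. Both MNF_ciHep libraries lie above all other libraries for each gene, at 298 and 389 TPM for Nr4a1, and no MEF_ciHep or pHep library exceeds 12.7 TPM for any of them.

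Nr6a1 (chr2:38723370-38927688, mm10) encodes GCNF, an orphan repressor known to silence Pou5f1 as stem cells differentiate, and was higher in every ciEPC library than in its fibroblasts. It had 0.70, 3.91 and 3.97 TPM in MEF, 22.9 to 47.7 TPM (median 31.9) in MEF_ciEPC and 15.6, 13.2 and 17.0 TPM in MEF_ciHep. The rise in MEF_ciEPC against MEF was 4.10 ± 0.33 (adjusted p = 1.57e-07), with every ciEPC library above every MEF library, series 2 passage 22 included at 30.2 TPM. In the MNF line Nr6a1 had 6.23 and 7.30 TPM in MNF, 30.6 and 33.8 TPM in MNF_ciEPC and 6.30 and 19.5 TPM in MNF_ciHep. It rose by 2.96 ± 0.35 (adjusted p = 5.12e-06) and then fell by 1.44 ± 0.33 (adjusted p = 0.00316), or by 2.24 without MNF_ciHep replicate 2. The fall in MEF_ciHep against MEF_ciEPC was -1.01 ± 0.28 (adjusted p = 0.00864) and sat at the 2-fold minimum. Its call was lost without MEF_ciHep replicate 2 (-0.86), by RLE scaling (-0.89), DESeq2 (-0.89), limma (-1.08, adjusted p = 0.0525), with a minimum count of 50 (-0.94) and with only the compared groups in the fit. ESC_EPC had 37.3 and 36.1 TPM, against 17.3 and 14.9 TPM in ESC (1.09 ± 0.32, adjusted p = 0.012), a call lost without any 1 of these 4 libraries (adjusted p = 0.0518 to 0.075). Nr5a1, which encodes SF1, the regulator of steroid-producing glands, had 0.80, 2.34 and 0.19 TPM in MEF and at most 0.53 TPM elsewhere.

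MEF_ciEPC also differed from ESC_EPC in members already described. Rarg lay lower by -3.76 ± 0.50 (adjusted p = 3.28e-05) with 49.8 and 57.3 TPM in ESC_EPC, or by -4.87, -3.16 and -4.46 without series 2 passage 22, series 1 or series 2. Thra lay lower by -2.57 ± 0.36 (adjusted p = 4.6e-05), or by -3.16 without series 1 passage 2. Nr3c1 lay lower by -2.13 ± 0.21 (adjusted p = 2.32e-06), Nr1d2 by -2.08 ± 0.31 (adjusted p = 9.7e-05), Ppard by -1.93 ± 0.32 (adjusted p = 0.000222) and Nr1d1 by -1.69 ± 0.33 (adjusted p = 0.000831). In these 4 genes no MEF_ciEPC library reached the lower ESC_EPC library. Nr2f1 was higher in MEF_ciEPC (50 counts against 2, ratio 8.67, 95% counting interval 2.28 to 73.5, adjusted p = 0.0206), a call lost without ESC_EPC replicate 2 (adjusted p = 0.148).

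Tests of the difference between the origins asked whether a member changed differently in the MNF line and the MEF line, and library type moves with 1 of the lines at each step. Passage differs as well, since MNF_ciEPC libraries were of passages 2 and 3 and MEF_ciEPC libraries of passages 1 to 22. With the MEF_ciEPC libraries summed by series, passage and origin cannot be told apart in these tests. At the step from fibroblast to ciEPC, 0 of the 32 tested members (0%) were higher and 6 (18.8%) lower for MNF origin, beside 6.16% and 8.93% of all tested genes. At an unadjusted p under 0.05, 1 member (Pgr) was higher. DESeq2 and limma called 0 members higher, beside 1125 and 729 of all genes. The 6 lower members were Vdr, Pparg, Rora, Thra, Rxra and Nr3c2. The difference for Rxra was -1.92 ± 0.29 (adjusted p = 0.000811), with 58.5 and 48.1 TPM in MNF and 16.8 to 25.1 TPM in MEF. For Rora it was -2.45 ± 0.41 (adjusted p = 0.00132), for Thra -2.33 ± 0.48 (adjusted p = 0.00473, or -1.74 without series 1 passage 2), for Vdr -4.62 ± 0.88 (adjusted p = 0.00301) and for Nr3c2 -5.44 ± 1.28 (adjusted p = 0.00954). That of Nr3c2 rests on 1 count in MNF_ciEPC and was lost without MNF_ciEPC replicate 2 (-4.69, adjusted p = 0.0542). Without the other MNF_ciEPC library it was -7.55, and without series 1 or series 2 it was -6.15 and -4.17. At the step from ciEPC to ciHep, 13 members (40.6%) were higher and 4 (12.5%) lower for MNF origin, beside 17.7% and 12% of all tested genes. The 13 were Nr4a1, Nr4a2, Nr4a3, Nr2f1, Nr2f2, Vdr, Rarg, Rora, Rorb, Esr1, Pgr, Nr1d1 and Nr1d2, and the 4 were Nr3c1, Esrra, Nr2f6 and Nr2c2. The calls of Pgr and Nr1d1 at this step were lost in several fits without 1 library or series (adjusted p up to 0.157 and 0.192), and that of Nr1d2 without MNF_ciEPC replicate 2 (adjusted p = 0.105). At this step 9 of 10 fibroblast markers were also higher for MNF origin by the same test and 3 of 10 hepatocyte markers lower, and the part of that shift in the members' differences was not tested.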

How the data were processed

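RNA of 28 libraries was sequenced after Trizol extraction and an Illumina TruSeq preparation, per the labels' protocols. The authors deposited expected counts and TPM per gene, made with RSEM 1.2.4 on mm10 per the submitters' processing notes. The aligner, the annotation release and the use of strand are not given in the sources used here. TPM was used for levels, since it is scaled to gene length. Expected counts were rounded and tested with edgeR 4.0.16 (R 4.3.3): TMM scaling, a filterByExpr minimum count of 10, and 1 quasi-likelihood fit of 9 groups in 20 samples, with the MEF_ciEPC libraries summed by series. Both series are read as culture lines from the titles. Calls needed a Benjamini-Hochberg adjusted p under 0.05 over 16061 genes and at least 2-fold. Differences between the origins are interaction contrasts of the same fit. A fold against a group at 0 is a bound against 3 counts over the group. With 1 to 3 counts, a ratio with an exact 95% binomial counting interval is given, which covers counting error only. Library totals ran from 1439670 to 6133150. Gene positions come from GENCODE M21 (mm10).

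The members and the gene lists were chosen with earlier results of these data known. Called members are printed with values by library, up to 8 with the largest change per direction and comparison. Genes that are not members are at most 4 per list and comparison with the smallest adjusted p, plus Alb, Col1a1, Sox17 and Pou5f1 as checks. Cps1 and Serpina1a were named after their values were seen. Alternatives were RLE scaling, DESeq2 1.42.0, limma 3.58.1 on log2(TPM + 1), other filters, no fold minimum, other sample sets and leaving out libraries. The scripts were tested on simulated data. Replicate numbers did not pair samples: of 73 pairs of samples with the same number, 0 had a correlation of deviations above 0.1 (range -0.163 to 0.085).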

Additional observations from a re-analysis of the deposited data

Results flagged for a closer look

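Among the 10 MEF_ciEPC libraries, the highest or lowest one lay far from the others in 11 of 38 members, with different libraries flagged. The rule compares the gap to the next library with the whole range, and its rate of 1 in 20 assumes independent, normally distributed values. These levels are often at 0 and come from passages of 2 series, so no excess over chance is shown. In series 2 passage 22, Nr0b1 was at 111 TPM (0 to 1.09 TPM in the other libraries), Rarg at 27.8 TPM (0.61 to 10.3 TPM) and Nr2c1 at 2.59 TPM (11.9 to 17.0 TPM). In series 1 passage 2, Thra was at 37.7 TPM (3.12 to 11.7 TPM), Ppard at 35.5 TPM (10.1 to 21.97 TPM) and Rxra at 34.4 TPM (11.4 to 22.1 TPM). In series 2 passage 1, Rorb was at 1.23 TPM (0 to 0.51 TPM) and Nr5a1 at 0.53 TPM (0 in the others). Nr1i2 was at 1.79 TPM in series 1 passage 6 (0 to 0.93 TPM), Nr2e3 at 3.02 TPM in series 1 passage 4 (0 to 1.38 TPM) and Nr4a2 at 11.0 TPM in series 1 passage 10 (0.89 to 6.02 TPM).

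The change from fibroblast to ciEPC differed between the MNF and MEF lines, as a log2 difference, by -5.44 for Nr3c2, -4.62 for Vdr, -3.70 for Pparg, -2.45 for Rora, -2.33 for Thra and -1.92 for Rxra. The sizes for Nr3c2 and Vdr rest on 1 and 2 counts in MNF_ciEPC and depend on the model's prior, and over the settings run they ranged from -7.55 to -1.03 and from -4.89 to -1.88. The change from ciEPC to ciHep differed by 11.33 for Nr2f1 and 9.05 for Esr1, whose sizes depend on the model's prior because MEF_ciHep was at 0. It differed by 6.35 for Rorb, 5.50 for Nr4a1, 4.94 for Nr2f2, 4.91 for Vdr, 4.47 for Pgr and 4.0 for Rarg (2.89 without series 2 passage 22, 3.26 without series 2). The sizes for Rorb, Vdr and Pgr also depend on the prior, since a group held 3 counts or fewer, and they ranged from 1.71 to 8.44, 2.29 to 5.22 and 0.99 to 6.74 over the settings run. It differed by 3.39 for Nr4a3, 3.37 for Nr4a2, 2.10 for Rora, 1.42 for Nr1d2 and 1.4 for Nr1d1. The negative differences were -1.93 for Esrra, -1.74 for Nr2f6, -1.66 for Nr3c1 and -1.59 for Nr2c2.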

How the results depend on the processing

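Of 156 called results of members, 96 kept their call in every alternative run that gave them an adjusted p. Another 60 lost it in at least 1, and 0 reversed. Of 2471 such alternative values, 2260 kept direction and call. Runs in which a filter removed the member, or which gave it no adjusted p, are not in these counts or in those below. The setting with no fold minimum uses the main fit, so it could lose no call. The calls lost numbered 39 with the 10 MEF_ciEPC libraries as separate samples, 27 by limma, 9 with only the compared groups, 6 with no filter on low counts, 4 by DESeq2 (Nr6a1 in MEF_ciHep against MEF_ciEPC, Nr1i2 and Nr4a3 in MEF_ciHep against pHep, and Nr0b1 in ESC_EPC against ESC), and 1 each by RLE scaling and a minimum count of 50 (Nr6a1). With the 10 MEF_ciEPC libraries as separate samples, the members called for the origin difference at the ciEPC step numbered 1 in place of 6, and all genes split into 499 higher and 428 lower in place of 990 and 1435. In that setting the members called higher were 3 in place of 5 in MEF_ciEPC against MEF, 2 in place of 4 in MNF_ciEPC against MNF, 7 in place of 11 in MNF_ciHep against pHep, 2 in place of 4 in MEF_ciHep against pHep, and 2 in place of 4 in MEF_ciEPC against ESC_EPC, and 0 in place of 2 were lower in ESC_EPC against ESC. In the same order, all genes called higher were 2560 in place of 2825, 2478 in place of 2949, and 2105 in place of 2950. Then came 1702 in place of 2429 and 2275 in place of 2699. All genes lower in ESC_EPC against ESC were 1454 in place of 2354. By limma 7 members were lower in MEF_ciEPC against MEF in place of 13, and 1896 of all genes in place of 2541. With no fold minimum 12 members were lower in MEF_ciEPC against ESC_EPC in place of 7, and 3350 of all genes in place of 2391. With only the compared groups in the fit, 3 members were higher in MEF_ciEPC against MEF in place of 5, 2 were lower in MEF_ciHep against MEF_ciEPC in place of 4, 1 was lower in ESC_EPC against ESC in place of 2, and all genes split into 1722 higher and 1450 lower in MNF_ciHep against pHep, in place of 2950 and 2152. In that setting all genes called higher numbered 2361 in place of 2825 in MEF_ciEPC against MEF. Those called lower numbered 1952 in place of 2383 in MEF_ciHep against MEF_ciEPC, and 2583 in place of 2354 in ESC_EPC against ESC. The cause of these shifts was not tested.

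The replicate numbers gave no sign of pairing between samples, which does not exclude shared cultures or batches. With the replicate number as a block, 18 members were called in MEF_ciEPC against MEF, and the counts of members called higher and lower were 17 and 3 in MNF_ciHep against MNF_ciEPC, 4 and 4 in MEF_ciHep against pHep, 12 and 2 in ESC_EPC against ESC, and 12 and 4 for the origin difference at the ciHep step. All genes then numbered 2682 higher and 2459 lower in MEF_ciEPC against MEF. In the order of the other comparisons they split into 3042 and 1676, 2230 and 1580, 2892 and 2275, and 2592 and 1826. The other counts of members did not move, but 5 calls were lost under the block: Pgr in MEF_ciEPC against MEF, in MNF_ciHep against MNF_ciEPC and for the origin difference at the ciHep step, Rarg in MEF_ciHep against MEF_ciEPC, and Nr1i2 in MEF_ciHep against pHep.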
